A study of Mus musculus with 74 samples.

Results

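The features described here are rows of the deposited expression table that carry no gene symbol and yet had a mean of at least 1 FPKM (sequenced fragments counted relative to the length of the transcript and to the size of the library) over the 33 microglia libraries. There are 2791 of them among 35679 rows without a symbol (7.82%) and 58976 rows in all, and 11750 rows with a symbol reached the same level. Because the mean microglial level chose the features, their levels, and microglia against nerve macrophages, are given as a description with no test. Just inside the threshold stood GSMG0002423 (1.00 FPKM) and just outside it GSMG0036600 (0.9997 FPKM), both read from spans of 1552 and 4122 bases.

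RNA was taken from microglia (MG) of the spinal cord and, in part of the study, from macrophages (MP) of the sciatic nerve. Cells were captured by beads that bind CD11b, which is also found on neutrophils and monocytes, and all mice were female. Disease was modelled by a transgene for human SOD1 with the G93A mutation on a C57BL/6J background, which causes a motor neuron disease. The G93A microglia are 4 pre-symptomatic libraries (mean age 50.8 days), 5 at onset, defined by peak weight (105 days), 4 early symptomatic, defined by weight loss (152.6 days), and 4 at end stage (169.4 days). Controls carried the wildtype human SOD1 transgene (WT; n = 4 at 107.3 days, the age of onset, and n = 4 at 165.4 days, the age of end stage) or no transgene (C57BL/6J, called B6; n = 4 at 109.8 and n = 4 at 165.6 days). There are 18 MP libraries, of which 3 are pre-symptomatic G93A, 3 G93A at onset, 4 early symptomatic, 4 end-stage, and 4 of the end-stage age whose descriptions say WT where title and strain say G93A. A further 12 MG and 11 MP libraries came from G93A mice grafted at onset with G93A or WT bone marrow. An MG library is 1 spinal cord, and a pre-symptomatic MP library pools the nerves of 2 mice.

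A genome annotation leaves several kinds of transcribed DNA without a gene symbol. Antisense transcripts are read from the strand opposite a known gene, and processed pseudogenes are copies of a messenger RNA pasted back into the genome, so their letters can be nearly those of the parent gene. Stretches of mitochondrial DNA have also been copied into the nuclear chromosomes, and a sequencing read from such a copy can be hard to tell from one of mitochondrial origin.

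Of the 2791 features, 1000 lie within a single exon of a GENCODE vM21 transcript (build GRCm38, called mm10), so that their letters could be read. The first 6 sequences below are features of 64 bases or less that lie in a processed pseudogene, and the coding gene that holds the same letters is named with each. They are shown because the letters of the feature alone do not place it in 1 gene. Capitals mark the bases of the feature, and 20 bases of the pseudogene on either side are in lower case.
GSMG0059306 (chr13:81065674-81065694, + strand, Gm8399, same letters in Actg1): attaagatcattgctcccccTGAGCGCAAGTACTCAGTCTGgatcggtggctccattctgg
GSMG0057300 (chr2:108949460-108949488, + strand, Gm13910, same letters in Hadhb): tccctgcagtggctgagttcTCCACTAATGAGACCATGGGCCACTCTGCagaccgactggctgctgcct
GSMG0059133 (chr14:48079567-48079588, - strand, Gm6055, same letters in Map1lc3b): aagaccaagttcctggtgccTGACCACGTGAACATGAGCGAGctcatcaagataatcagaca
GSMG0069289 (chr2:49308790-49308853, + strand, Gm13509, same letters in Ap2m1): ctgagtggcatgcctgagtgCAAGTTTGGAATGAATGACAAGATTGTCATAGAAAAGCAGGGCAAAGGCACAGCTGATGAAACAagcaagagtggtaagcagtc
GSMG0067763 (chr12:96922688-96922733, - strand, Gm6863, same letters in Naca): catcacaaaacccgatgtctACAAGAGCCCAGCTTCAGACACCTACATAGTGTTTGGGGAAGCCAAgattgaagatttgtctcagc
GSMG0055308 (chr12:56373625-56373650, - strand, Cox6c2, same letters in Cox6c): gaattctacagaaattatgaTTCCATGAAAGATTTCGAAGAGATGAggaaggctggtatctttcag
In 5 of the 6, every printed base was identical in the coding gene, and in GSMG0059133 the stretch matched Map1lc3b at 61 of 62 bases, with the single difference on the 3' side of the feature.

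The next 2 sequences are features read from mitochondrial letters, 1 on chromosome 1 and 1 on the mitochondrial chromosome, and all of their bases belong to the feature. The first is the reverse complement of bases 1279 to 1541 of the 1545 bases of mt-Co1, which encodes a subunit of cytochrome c oxidase. The second is the reverse complement of bases 651 to 805 of the 957 bases of mt-Nd1, which encodes a subunit of respiratory complex I.
GSMG0043412 (chr1:24615710-24615972, + strand): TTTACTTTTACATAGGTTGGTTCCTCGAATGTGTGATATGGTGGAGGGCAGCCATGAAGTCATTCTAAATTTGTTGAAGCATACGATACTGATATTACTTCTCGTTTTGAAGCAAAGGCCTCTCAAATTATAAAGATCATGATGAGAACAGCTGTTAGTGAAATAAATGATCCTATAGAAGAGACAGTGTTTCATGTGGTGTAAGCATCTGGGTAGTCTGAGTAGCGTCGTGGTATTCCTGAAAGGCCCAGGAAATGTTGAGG
GSMG0041520 (chrM:3401-3555, - strand): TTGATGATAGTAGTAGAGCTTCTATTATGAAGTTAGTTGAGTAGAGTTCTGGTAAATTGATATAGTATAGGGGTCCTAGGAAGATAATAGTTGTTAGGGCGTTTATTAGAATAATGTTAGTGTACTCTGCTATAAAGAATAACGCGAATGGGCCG

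The features were short. Their median span was 890 bases (quartiles 115.5 and 2515.5) against 22830 bases for the rows with a symbol at the same level. Spans of 30 bases or less made up 254 features and spans of 31 to 60 bases 332 features, while 0 and 1 of the 11750 rows with a symbol were as short. The commonest spans were 46 bases (95 features), 21 bases (65 features) and 45 bases (61 features). Spans over 10000 bases were seen in 175 features (6.27%), against 74.3% of rows with a symbol. The strands were used about equally, with 1385 features on the + and 1406 on the - strand. Chromosomes 7 (221 features), 11 (208) and 2 (197) held the most, and 13 features lay on the mitochondrial chromosome, where no row of the table carries a symbol.

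**Figure D1:**
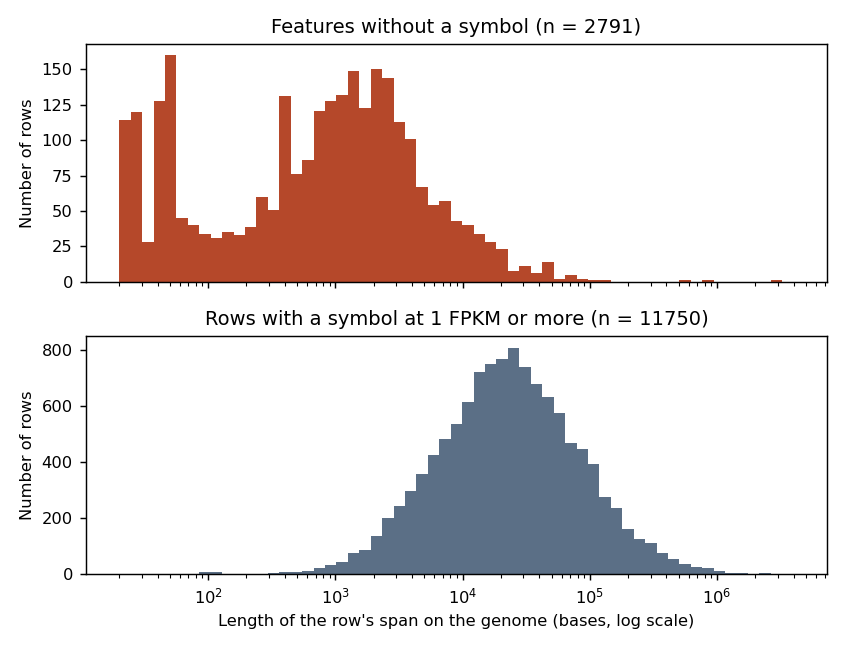
Span of features without a symbol and of rows with a symbol, both at a mean of at least 1 FPKM over 33 microglia libraries, on a logarithmic axis of bases. The features have a second group of spans at or below 60 bases that rows with a symbol lack.

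Most features lay at or near a known gene. Against the nearest row with a symbol, 1234 features (44.2%) overlapped it on the opposite strand, 303 (10.9%) on the same strand and 83 on both strands, 193 and 155 lay within 5000 bases on the same or the other strand, and 810 (29.0%) lay farther away. By GENCODE, 983 features covered an exon of a gene on the other strand and 802 an exon of a gene on the same strand. A further 495 and 332 overlapped a gene on the same or the other strand with under 50% of their bases in exons. The remaining 179 touched no annotated gene. Among the 802, the annotated gene was a processed pseudogene for 390, a protein-coding gene for 216 and an antisense or intergenic long noncoding RNA for 43 and 33. Levels were low in most, with a median of 3.56 FPKM (9.11 FPKM for the rows with a symbol), but 106 features were at 100 FPKM or more and 15 at 1000 FPKM or more. The 13 features on the mitochondrial chromosome held 39.9% of all FPKM of the features, those opposite a gene 28.3% and those farther than 5000 bases from a symbol 16.2%.

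Most of the features were also read in MP and in grafted MG. A mean of at least 1 FPKM was reached by 2116 features (75.8%) in MP and by 2393 (85.7%) in grafted MG, against 80.9% and 91.1% of the rows with a symbol. For 53 features (1.90%) every MG library was above every MP library and for 14 (0.502%) the reverse held, against 3.03% and 0.736% of all rows at the same MG level, which chose both and favours MG. In every MP library 9 features were listed at 0. A library had 2095 to 2587 features above 1 FPKM in MG and 1712 to 2056 in MP. FPKM sums ran from 484604 to 618562 in MG and from 625386 to 986659 in MP, while the number of reads behind them is unknown. In G93A MP, 10 neutrophil markers summed to 75528 to 185036 FPKM before symptoms and to 112652 to 213332 FPKM at end stage. The sums of 6 erythroid markers there were 14922 to 50729 and 8345 to 246356 FPKM. Which cells of the MP libraries held the features was not tested.

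Many features opposite a gene followed that gene closely from library to library. Of the 1234, 1043 were below the gene on the other strand, with a median ratio of 0.297, and 94 had both ends within 10 bases of the gene's ends. Among the 411 pairs with both at 5 FPKM or more, the difference in log2(FPKM + 1) between feature and gene had a median SD of 0.19 over the 33 MG libraries, and the median Pearson r was 0.96. Among features farther than 5000 bases from their nearest symbol, with the same minimum, the SD was 0.75 and r was 0.18. An r above 0.9 was found in 280 of the 411 opposite pairs (68.1%) and in 2.94% of the distant ones. These are descriptions across libraries that both rows share, and no source used here says whether strand was used in counting, so reads of a gene and of the feature opposite it cannot be told apart.

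Outside the chromosome 1 cluster described further on, the most abundant of these features was GSMG0068762 (chr7:19696108-19699189), which spans Apoe, the gene of a lipid transport protein, on the opposite strand. It had a mean of 2064 FPKM in MG, 348 FPKM in MP, and 0.2607 to 0.2635 of the Apoe value in every MG library. Opposite Ctsd, a lysosomal protease, GSMG0068954 (chr7:142375909-142388039) lay at 0.0270 to 0.0290 of its level. Opposite Spp1, the gene of osteopontin, GSMG0068257 (chr5:104435104-104441055) lay at 0.0557 to 0.0624, and opposite Atp1b2, a subunit of the sodium pump, GSMG0065606 (chr11:69599726-69606459) lay at 0.198 to 0.207. Each of these ratios thus stayed within a narrow range over the libraries, while it differed widely from gene to gene. At the other end, GSMG0068149 (chr5:123863566-123865517) was at 0.986 to 1.00 of Hcar2, a receptor for hydroxycarboxylic acids, and GSMG0067001 (chr19:12460778-12465286) at 0.921 to 0.946 of Mpeg1, which encodes perforin-2. A 31-base feature, GSMG0047952 (chr4:117867837-117867867), opposite the glycine transporter gene Slc6a9, varied more, from 0.504 to 0.975. Its bases also lie in an exon of Ccdc24 on its own strand by GENCODE. The row that names Ccdc24 together with B4galt2 begins 891 bases away, had a mean of 11.3 FPKM, and had r = 0.959 with the feature over the MG libraries, against 0.997 for Slc6a9. Not every named feature kept a ratio, since GSMG0004867, opposite Purb, was at 0.288 to 5.59 of that gene, with r = 0.50.

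**Figure D2:**
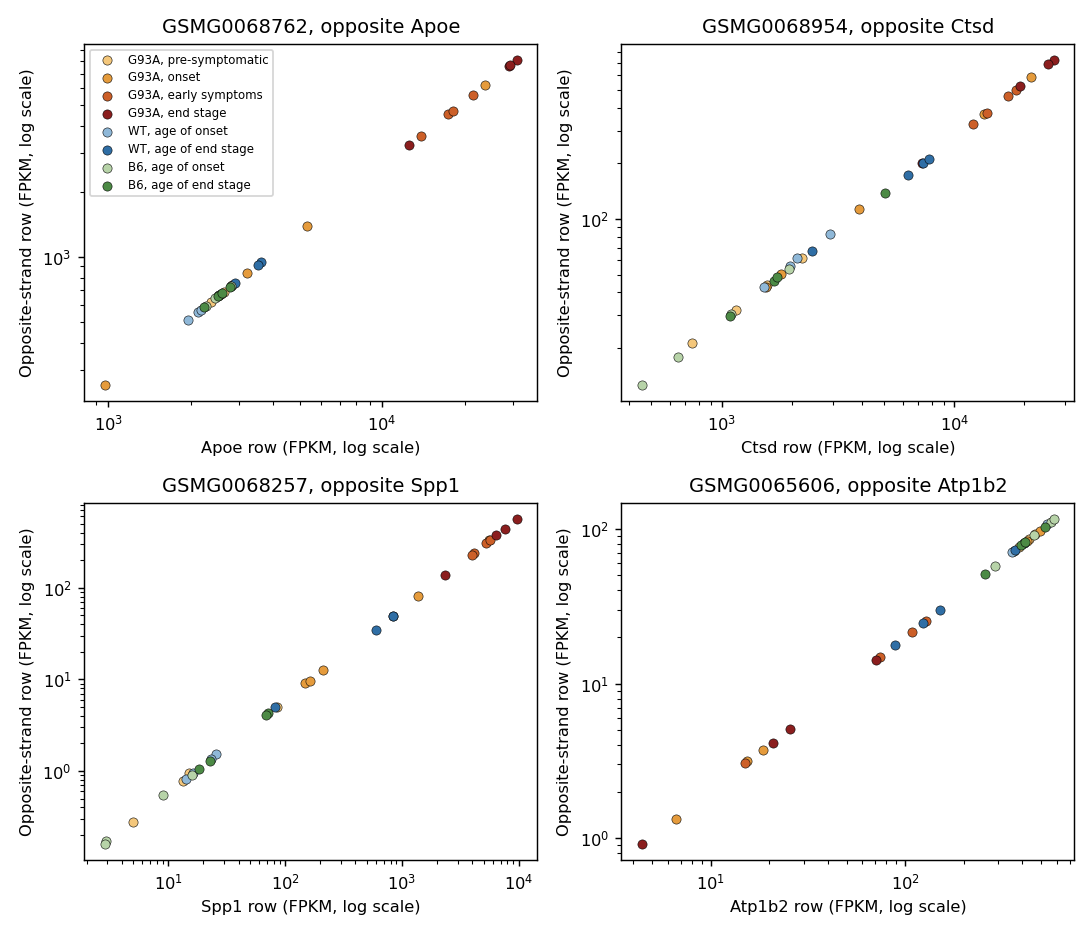
FPKM of 4 features (y) against FPKM of the gene on the opposite strand (x) in 33 microglia libraries, both axes logarithmic, coloured by group. In each panel the points lie along a line of 1 ratio across the whole range of the gene.

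Short features in pseudogenes shared their letters with coding genes. Of 429 features of 60 bases or less whose letters could be read, 252 held letters found also in another coding gene. This was the case for 228 of 238 that lay in a pseudogene and for 24 of 191 elsewhere. Among 571 longer features, 87 were at least 95% identical to another gene. For 261 features a single other coding gene with a row of its own held the letters, 145 genes in all. In the 173 pairs with both at 5 FPKM or more the feature was above the gene in 98, the median ratio was 1.16, and the difference in log2(FPKM + 1) had a median SD of 0.196 over MG libraries, with a median r of 0.83. FPKM divides by length, and reads that fit both places cannot be assigned to either.

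The highest of the short features was GSMG0054969 (chr14:46084139-46084160), 22 bases in the ubiquitin pseudogene Gm1821, at 1344 FPKM beside 1188 FPKM for Ubb, with a ratio of 0.898 to 1.29 over MG libraries. GSMG0059306, the printed gamma-actin stretch, had 393 FPKM beside 162 FPKM for Actg1 (ratio 1.94 to 2.83). GSMG0057300 had 211 FPKM beside 66.1 FPKM for Hadhb, an enzyme of fatty acid oxidation (ratio 2.72 to 3.81). Thus 3 features of 21 to 29 bases stood above a whole coding gene with the same letters. The stretch of GSMG0067763 was at 156 FPKM beside 32.1 FPKM for Naca, which binds new polypeptides at the ribosome, and GSMG0055308 was at 149 FPKM beside 546 FPKM for Cox6c, a cytochrome c oxidase subunit. The pseudogene Gm13509 held 6 features with the letters of Ap2m1, a clathrin adaptor subunit, at 116.5 to 178 FPKM beside 64.8 FPKM for the gene. Among the 25 highest such features with feature and gene both at 5 FPKM or more, the ratio to the gene was highest for GSMG0068562. This feature has 85 bases with the letters of the cytochrome c gene Cycs, and its ratio was 8.34 to 22.4. With the gene below that minimum, GSMG0068225, with the letters of Rpl9, was higher still, at 134.9 FPKM beside 3.76 FPKM.

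Features of mitochondrial sequence were the most abundant of all. GSMG0041514, which covers mt-Co1, had a mean of 11011 FPKM in MG and 2534 FPKM in MP. GSMG0041512 covers the large ribosomal RNA mt-Rnr2 and runs on over mt-Nd1, at 7259 and 1005 FPKM. Of the 13 features on the mitochondrial chromosome, 5 were read from the - strand, among them GSMG0041520, printed above, at 4902 FPKM in MG. A cluster of 5 features on chromosome 1 (24611527 to 24615972), inside the lysosomal transporter gene Lmbrd1, overlaps annotated unprocessed pseudogenes on either strand. Its highest feature, GSMG0043411 (chr1:24613188-24614814, - strand), had 7868 FPKM, while Lmbrd1 itself had 49.1 FPKM, and followed mt-Co1 with r = 0.98 across the 33 MG libraries. The other 4 had r of 0.86 to 0.96 with mt-Co1.

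The MG libraries fell into separate ranges in 1 ratio, that of GSMG0043412 to the mt-Co1 feature GSMG0041514. In 16 libraries it was 0.3028 to 0.3953 and in 17 it was 0.1256 to 0.1919, with none between. The high range held the 4 pre-symptomatic, the first 4 onset, the 4 WT and the 4 B6 libraries at the age of end stage. The low range held onset library 5, all early symptomatic and end-stage libraries, and all WT and B6 libraries at the age of onset. MP libraries had 0.1373 to 0.2251 and grafted libraries 0.02029 to 0.1024. The numbers in the library descriptions run from 1 to 10 and 30 to 39 in the high range and, leaving out onset library 5, from 12 to 28 in the low range, and the labels name no batch. Each G93A comparison below therefore sets libraries of 1 range against the other, apart from onset library 5, while WT against B6 stays within a range. The part of this difference in the results was not tested, except where a comparison within a range is given, and for end stage or early symptoms against pre-symptomatic microglia it cannot be told apart from the stage.

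**Figure D3:**
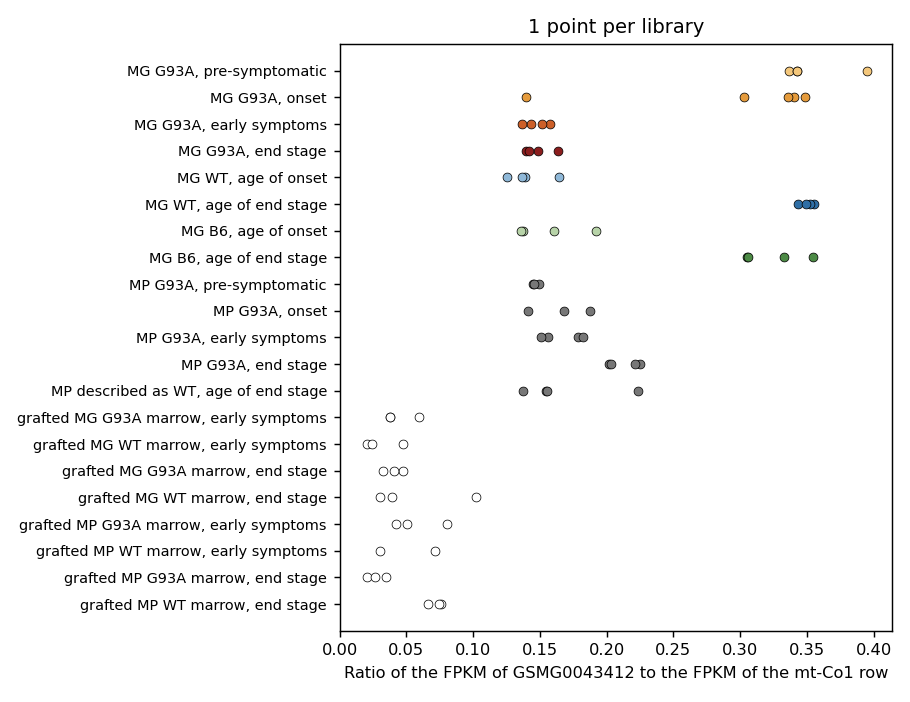
Ratio of the FPKM of GSMG0043412 to the FPKM of the mt-Co1 feature in all 74 libraries, by group, 1 point per library. MG libraries lie at 0.1256 to 0.1919 or at 0.3028 to 0.3953, and onset is the only MG group with libraries in both ranges.

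The share of a library's FPKM taken by the features was lower at end stage than before symptoms. The 2791 features took 24.3% ± 4.62 (SD, n = 4) in pre-symptomatic libraries and 14.01% ± 2.21 (n = 4) in those of end stage, with 16.5% ± 6.84 (n = 5) for onset and 16.3% ± 3.68 (n = 4) for early symptoms. WT microglia had 22.4% ± 2.09 and 17.03% ± 4.40 at the ages of onset and end stage, and B6 microglia 24.9% ± 2.13 and 25.6% ± 4.46. The mitochondrial chromosome alone took 11.2% ± 2.95 before symptoms and 3.24% ± 1.24 at end stage, and the chromosome 1 cluster 5.55% ± 1.71 and 1.29% ± 0.428. All 3 shares were lower in every end-stage than in every pre-symptomatic library, with an exact two-sided permutation p of 0.0286, the smallest that 4 against 4 allows, and a Benjamini-Hochberg value of 0.12 over the 21 such tests. None of the 21 passed after adjustment.

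Within groups the mitochondrial share varied widely. At onset the 5 libraries had 11.7%, 1.60%, 0.735%, 10.2% and 0.991%, and in WT mice at the age of end stage the 4 libraries had 3.41%, 4.23%, 10.8% and 4.75%. Onset thus held 2 libraries near the pre-symptomatic share and 3 far below it. Marker sums of other cells also varied between and within these groups. The summed FPKM of 10 oligodendrocyte markers was 27868 to 32437 before symptoms, 822 to 31919 at onset and 1840 to 11260 at end stage, that of 9 astrocyte markers 1531 to 2447, 72.3 to 2799 and 404 to 3469, and that of 9 neuron markers 426 to 587, 17.7 to 586 and 22.8 to 168. In early symptoms the median astrocyte sum was 3378, against 2071 before symptoms. Of these lists 9 of 10, 8 of 9 and 8 of 9 fell from pre-symptomatic to end stage by limma, and 5 of 10 neutrophil markers rose. Of all rows 29.8% fell and 24.8% rose. Among 10 microglia markers 2 rose and 0 fell, and their sum was 1725 to 8678 FPKM before symptoms and 3704 to 10557 FPKM at end stage. The part of these cells in the results below was not tested beyond the alternatives given with those results. In bulk samples fewer cells of a type and less RNA per cell cannot be told apart.

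**Figure D4:**
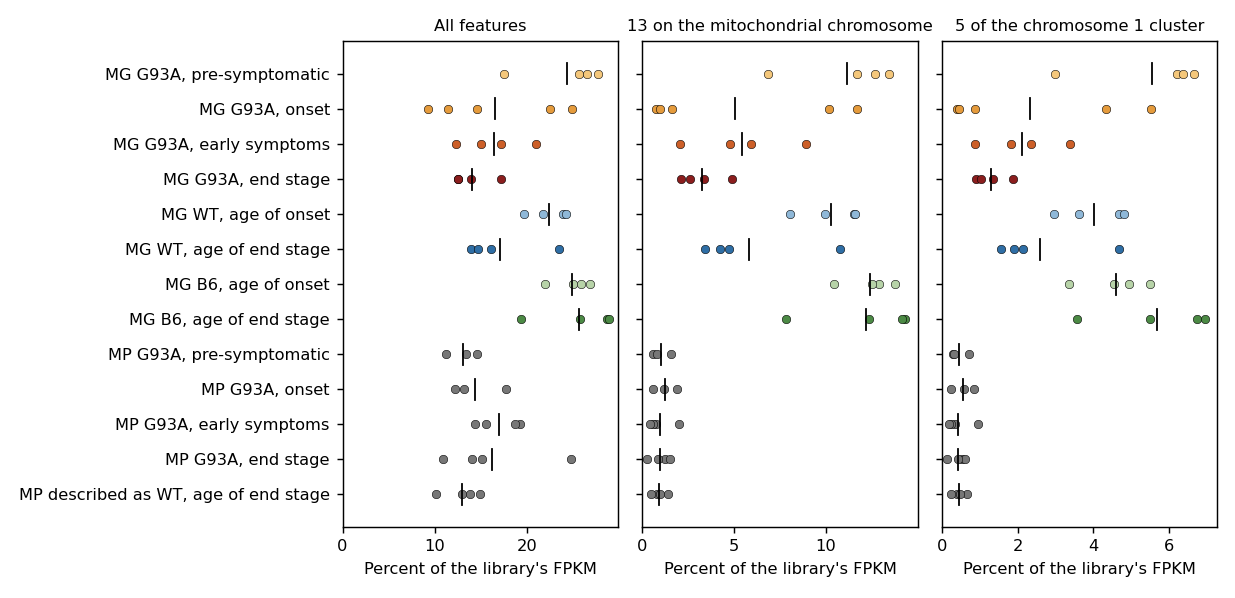
Percent of a library's FPKM in all 2791 features, in the 13 features of the mitochondrial chromosome and in the 5 features of the chromosome 1 cluster, by MG and MP group, 1 point per library with a tick at the group mean. Among MG groups the shares are highest before symptoms and in B6 mice, and the onset points are the most spread.

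The first comparison asked how end-stage G93A microglia differed from microglia with the wildtype human transgene at the same age. By limma on log2(FPKM + 1), a scale that understates changes of low values, with adjustment over all 14541 rows tested, 232 features (8.31%) passed an adjusted p under 0.05, 100 of them higher and the others lower. Over all rows 7.4% passed, 2.99% higher and 4.41% lower, beside 3.58% and 4.73% of the features. The split turned with the scaling, since 146 were higher and 76 lower after median-ratio scaling. That scaling called 7.95% of the features and 6.95% of all rows. With B6 in place of WT controls 40.3% of the features and 44.98% of all rows were called, and with marker score terms 15.6% and 17.05%. The neutrophil gene S100a8 exceeded 10000 FPKM in WT libraries 1 (32464 FPKM) and 2 (16679 FPKM) and in end-stage library 4 (20413 FPKM). Without the libraries above that level 12.29% of the features and 13.94% of all rows were called, with more features lower (231) than higher. The median log2 difference was -0.11 over the features and -0.13 over all rows. Of 74 called features opposite a tested gene, the gene was called too for 40, in the same direction each time. Over all 1158 such pairs, called or not, the gene was called in 7.69%.

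Features named as rises or falls, here and in the comparisons below, were picked among called features whose groups of libraries did not overlap. Their lack of overlap was therefore fixed by the choice and is no separate result. Among the largest rises were features opposite Apoe and Hspb1. GSMG0068762, opposite Apoe, had 8100, 7597, 7690 and 3267 FPKM at end stage and 755, 940, 663 and 917 FPKM in WT microglia. Every end-stage library was above every WT library, with a log2 difference of 2.95 ± 0.50 (SE; limma adjusted p = 0.000684), and Apoe differed by 2.95. GSMG0068302, opposite the small heat shock protein gene Hspb1, had 3.45, 12.6, 13.1 and 47.5 FPKM against 0.24, 0.30, 1.12 and 0.26 FPKM, a rise of 3.31 ± 0.59 (adjusted p = 0.00106). GSMG0009715, in an exon of Gm9817 on chromosome 13 (chr13:45078371-45081222), had nearly the same values in the same libraries, at 3.21, 10.9, 11.1 and 42.1 FPKM against 0.18, 0.42, 0.83 and 0.13 FPKM, a rise of 3.22 ± 0.56 (adjusted p = 0.000894). In both of these features the fourth end-stage library was the highest, and no end-stage library was as low as a WT library.

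Features farther than 5000 bases from any row with a symbol rose as well. GSMG0020641 (chr2:6471994-6478619), in the span of the long noncoding RNA gene Gm13391 and 28174 bases from the nearest symbol, had 5.80, 7.24, 7.09 and 3.39 FPKM at end stage and 1.11, 0.25, 0.04 and 0.67 FPKM in WT (2.19 ± 0.36, limma adjusted p = 0.000485). GSMG0009353 (chr12:112784998-112802658), in the span of Ahnak2, had 10.7, 12.1, 6.68 and 4.56 FPKM against 0.36, 0.79, 0.44 and 0.07 FPKM (2.69 ± 0.42, adjusted p = 0.000225). Neither pair of groups overlapped, which the rule for naming required. Features opposite Spp1 (GSMG0068257, 3.65 ± 0.79), Lgals3bp (GSMG0066730, 2.15 ± 0.44), the lipoprotein lipase gene Lpl (GSMG0038519, 2.14 ± 0.55) and the sulfotransferase gene Chst2 (GSMG0069946, 1.98 ± 0.37) also rose by the same test.

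Among the falls were features opposite Dlg4, Pou3f2, Slc6a9 and Hmgcs1 and a pair in AW047730 and AI849053. GSMG0070973, 45 bases (chr11:70034220-70034264) opposite the synaptic scaffold gene Dlg4, was listed at 0 in all 4 end-stage libraries and at 22.9, 14.4, 60.04 and 13.7 FPKM in WT (limma adjusted p = 0.00594), while Dlg4 differed by -0.37 ± 0.24 (adjusted p = 0.35). GSMG0024510 (chr3:88200623-88203481, + strand), in AW047730, and GSMG0025616 (chr3:88200020-88201223, - strand), in AI849053, overlap each other on opposite strands. The first had 0.53, 1.69, 1.42 and 3.08 FPKM against 6.74, 8.56, 29.6 and 10.6 FPKM and fell by 2.34 ± 0.61 (adjusted p = 0.0181), the second fell by 2.17 ± 0.60 (adjusted p = 0.0255). For both, the third WT library was far above the other WT libraries. All end-stage libraries were below the WT range, which the rule for naming required. GSMG0026343, opposite the neural transcription factor gene Pou3f2, fell by 2.43 ± 0.61, GSMG0047952, opposite Slc6a9 and in an exon of Ccdc24, fell by 2.56 ± 0.79, and GSMG0043186, opposite the sterol synthesis gene Hmgcs1, fell by 2.01 ± 0.55. GSMG0020781 (chr2:25180781-25183324), an exon of the Notch regulator gene Nrarp, fell by 2.18 ± 0.52 at 9395 bases from its nearest symbol.

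This comparison crosses the ranges of the mitochondrial ratio. With the WT libraries of the age of onset, which lie in the range of the end-stage libraries but come from younger mice, an alternative chosen after seeing the data, 1090 features (39.1%) were called, 464 higher and 626 lower, against 44.69% of all rows, and 19 of the 20 named features remained called. GSMG0067053, a 46-base feature in the span of Entpd1, was the exception, at -1.19 (limma adjusted p = 0.167). The share of features called was 3.48% to 4.23% without end-stage library 1, 2 or 3, 3.69% and 5.09% without WT library 3 or 4, and 3.87% when only the compared groups were fitted. The share of all rows in these settings was 3.187% to 4.77%.

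At onset against WT microglia, 222 features (7.95%) were called, 62 higher and 160 lower, while 7.97% of all rows were called, 1.77% higher and 6.2% lower. The median log2 difference was 0.07 over the features and 0.05 over all rows. Only 47 features lay above and 72 below every WT library (3.23% of all rows did either). For example, GSMG0068257, opposite Spp1, had 9.10, 333, 82.2, 9.63 and 12.7 FPKM at onset and 1.52, 1.34, 0.96 and 0.82 FPKM in WT microglia. Every onset library was above the WT range, which the rule for naming required, and the second was above it by the most. The rise was 3.96 ± 0.75 (limma adjusted p = 0.0153).

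Mitochondrial features made up part of the falls. Of the 13 on the mitochondrial chromosome, 10 fell, with log2 differences of -3.16 to -1.75 over the 13. GSMG0041515, the mt-Nd3 feature, had 121.7, 25.7, 2.98, 56.6 and 9.66 FPKM at onset against 365, 129.5, 334 and 133.3 FPKM in WT (-3.16 ± 0.75, limma adjusted p = 0.0417). GSMG0024510, in AW047730, had 22.9, 1.30, 0.85, 21.9 and 2.92 FPKM against 30.5, 23.0, 27.7 and 35.6 FPKM (-2.27 ± 0.57, adjusted p = 0.0432). All onset libraries were below all WT libraries in both features, which the rule for naming required. Libraries 2, 3 and 5 were far below libraries 1 and 4 in GSMG0024510.

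The count at onset did not hold across settings. Without onset library 1 the features called were 34.9% (40.5% of all rows), without library 4 they were 29.3% (34.6%) and without library 5 they were 0.573% (0.242%). Without onset library 2 or 3, or any 1 of the 4 WT libraries, they were 0.0358% to 0.143% (0.0344% to 0.0756% of all rows). With B6 in place of WT controls 1275 features (45.7%, against 52.97% of all rows) were called, 726 higher and 549 lower. The count was 7 (0.251%, against 0.303% of all rows) after median-ratio scaling, where all 7 were higher. It was 22 (0.788%, against 0.468% of all rows) without the libraries in which the neutrophil gene S100a8 exceeded 10000 FPKM. A last setting put onset libraries 1 to 4 against the WT libraries of the age of end stage, which share their range of the mitochondrial ratio. There 27 features were called (0.967%, against 1.126% of all rows). In that last setting 0 of the 20 named features kept their call and 5 changed direction. GSMG0058919, 27 bases in the ribosomal protein pseudogene Rpl5-ps1 (chr1:14865239-14865265), was listed at 0 in all 4 WT libraries of the age of onset and at 27.2, 67.4, 68.9, 35.6 and 21.9 FPKM at onset (adjusted p = 0.000905). In the WT libraries of the age of end stage it had 47.3, 33.9, 56.9 and 42.4 FPKM, so against those the difference was 0.05 (adjusted p = 0.985).

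From pre-symptomatic to end-stage G93A microglia, 1371 features (49.1%) were called, 694 higher and 677 lower. Of all rows 54.5% were called, 24.8% higher and 29.8% lower, and the median log2 difference was 0.09 over the features and 0.04 over all rows. With FPKM scaled to rows with a symbol, 50.4% of the features and 57.0% of all rows were called. The split of the features was then 405 higher and 1003 lower. Of 1158 features opposite a tested gene, 589 were called. The gene was also called for 498 of them, 475 in the same direction and 23 in the opposite one. Over all 1158 pairs the gene was called in 58.3%. Of 373 features farther than 5000 bases from a tested gene, 175 were called, and of the 87 whose nearest gene was called too, 39 went the same way and 48 the other way.

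**Figure D5:**
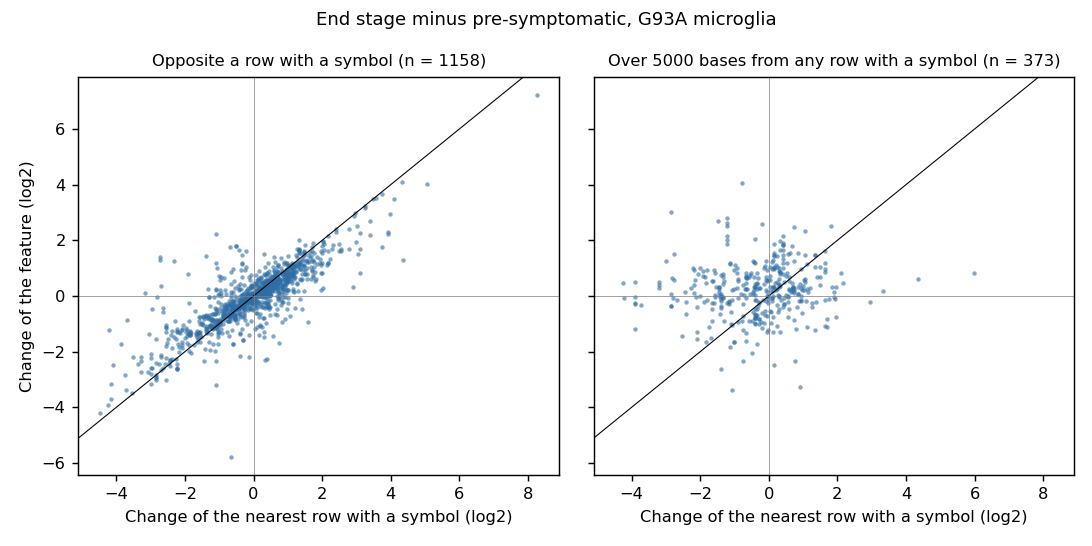
Log2 difference, end stage minus pre-symptomatic G93A microglia, of each feature (y) against that of its nearest row with a symbol (x), on the log2(FPKM + 1) scale, with a line of equality. Where feature and gene were both called, 475 of the 1158 features opposite the gene went the same way as it and 23 the other way. Of the 373 farther than 5000 bases away, 39 went the same way and 48 the other way.

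The features that rose most included those opposite Spp1, Ctsd, Lpl and Mpeg1. GSMG0068257, opposite Spp1, had 5.03, 0.28, 0.95 and 0.77 FPKM before symptoms and 556, 440, 376 and 138.3 FPKM at end stage, a rise of 7.21 ± 0.79 (limma adjusted p = 1.48e-06) beside 8.27 for Spp1. GSMG0068954, opposite Ctsd, had 32.2, 21.3, 43.9 and 61.7 FPKM and then 722, 523, 686 and 200 FPKM, a rise of 3.66 ± 0.63 (adjusted p = 0.000134). The fourth end-stage library was the lowest in both, and still above every pre-symptomatic library, which the rule for naming required. Features opposite Lpl (GSMG0038519, 4.01 ± 0.55), Mpeg1 (GSMG0067001, 3.52 ± 0.57), Hcar2 (GSMG0068149, 3.48 ± 0.53), Lgals3bp (GSMG0066730, 3.48 ± 0.44), Apoe (GSMG0068762, 3.25 ± 0.50) and the actin-binding protein gene Cotl1 (GSMG0037892, 3.16 ± 0.55) rose by the same test. GSMG0067659, opposite the neutrophil gene S100a8, rose by 4.09 ± 1.67 (adjusted p = 0.0406), with 41.3, 113.6, 29.8 and 2890 FPKM at end stage against 12.7, 2.02, 4.33 and 22.04 FPKM. Its level in the fourth end-stage library stood apart, and with terms for the neutrophil and oligodendrocyte scores the difference was -0.18 (adjusted p = 0.612).

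The features that fell most included those opposite Slc6a9, Atp1b2, Scd1 and Dlg4. GSMG0047952, opposite Slc6a9 and in an exon of Ccdc24, had 92.8, 98.3, 101 and 83.7 FPKM before symptoms and 0.84, 4.74, 4.32 and 11.3 FPKM at end stage and fell by 4.21 ± 0.79 (limma adjusted p = 0.000262), beside log2 differences of -4.47 for Slc6a9 and -2.70 for the row of Ccdc24 and B4galt2. GSMG0065606, opposite Atp1b2, had 86.4, 92.7, 76.0 and 71.9 FPKM and then 0.92, 5.12, 4.13 and 14.3 FPKM and fell by 3.90 ± 0.85 (adjusted p = 0.000819). The groups were far apart in both, with the first end-stage library lowest and the fourth highest. GSMG0019730, opposite the desaturase gene Scd1, fell by 3.72 ± 0.71, GSMG0066732, opposite Prr18, fell by 3.48 ± 0.67, and GSMG0028139, opposite the lipid phosphatase gene Plpp3, fell by 3.36 ± 0.64. The 45-base GSMG0070973, opposite Dlg4, went from 69.9, 75, 44.8 and 35.3 FPKM to a listed 0 in every end-stage library (adjusted p = 0.000142), while Dlg4 fell by 0.64 ± 0.24 (adjusted p = 0.0276).

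Among features away from a symbol, GSMG0025616, in the long noncoding RNA gene AI849053, had 21.2, 28.8, 24.1 and 14.1 FPKM before symptoms and 0.32, 0.90, 1.04 and 2.30 FPKM at end stage and fell by 3.47 ± 0.60 (limma adjusted p = 0.000127). Its neighbour on the other strand, GSMG0024510 in AW047730, fell by 3.29 ± 0.61 (adjusted p = 0.000225). GSMG0068239, in the span of the pseudogene Gm13502 and 387233 bases from a symbol, fell by 3.39 ± 0.53, and GSMG0020781, the Nrarp exon, fell by 3.28 ± 0.52. For these 4 features every end-stage library was below every pre-symptomatic library, which the rule for naming required. In contrast GSMG0020641, in Gm13391, was listed at 0 in 3 of the 4 pre-symptomatic libraries and at 0.17 FPKM in the other one, and rose by 2.68 ± 0.36 (adjusted p = 1.06e-05).

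Features of mitochondrial sequence, and features with the letters of a coding gene, were set beside their counterparts. Of the 13 features on the mitochondrial chromosome 9 fell, with log2 differences of -1.95 to -0.61 over the 13, and all 5 of the chromosome 1 cluster fell, with log2 differences of -2.84 to -1.59. GSMG0043412 fell most, from 5432, 5651, 5631 and 3146 FPKM to 372, 862, 575 and 1109 FPKM (-2.84 ± 0.62, limma adjusted p = 0.00086), beside -1.59 ± 0.59 for the mt-Co1 feature GSMG0041514. Of 254 features whose letters stand in 1 other tested coding gene, 44.9% were called, and the gene in 59.8%. In 99 pairs both were called, 97 in the same direction and 2 in the opposite one, in 15 the feature alone and in 53 the gene alone. With terms for the oligodendrocyte and neutrophil marker scores of each library, 465 of all features (16.7%) were called in place of 1371, and 16.68% of all rows.

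Early symptoms were compared with the same pre-symptomatic libraries, so the results of both comparisons share that group. In early symptoms 933 features (33.4%) were called, 574 higher and 359 lower, against 34.9% of all rows, 19.5% higher and 15.4% lower. With FPKM scaled to rows with a symbol 35.3% of the features and 40.1% of all rows were called, 365 features higher and 619 lower. Without early symptomatic library 2 the features called were 15.7% (14.05% of all rows). Without pre-symptomatic library 1 or 2 they were 21.8% and 20.9% (20.4% and 19.1%). GSMG0068762, opposite Apoe, had 4544, 5603, 4731 and 3618 FPKM in early symptoms against 688, 619, 670 and 658 FPKM (2.79 ± 0.50, limma adjusted p = 0.000376). GSMG0068257, opposite Spp1, had 239, 311, 330 and 230 FPKM and rose by 6.92 ± 0.79 (adjusted p = 7.7e-06). Neither overlapped the pre-symptomatic libraries, which the rule for naming required.

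Features opposite Atp1b2 and Scd1 fell in early symptoms too, with the second early library lowest. GSMG0065606, opposite Atp1b2, had 14.9, 3.08, 21.6 and 25.3 FPKM in early symptoms and fell by 2.55 ± 0.85 (limma adjusted p = 0.0239). GSMG0019730, opposite Scd1, had 6.08, 1.33, 7.43 and 9.14 FPKM and fell by 2.85 ± 0.71 (adjusted p = 0.00517). GSMG0070369, 45 bases opposite the integrin gene Itgb2, which encodes CD18, rose by 2.68 ± 0.64 (adjusted p = 0.00401), beside 2.72 for Itgb2. On the mitochondrial chromosome 0 of 13 features were called, with log2 differences of -1.28 to 0.06, while 3 of the 5 in the chromosome 1 cluster fell. With marker score terms 500 features (17.9%) were called, as were 17.89% of all rows, and with no filter on low values 564 features were called and 6.56% of the 54359 rows then tested.

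The human SOD1 transgene without the mutation was tested by WT against B6 microglia, within a range of the mitochondrial ratio. By limma 0 of the 2791 features were called at the age of end stage, with 16.8% at an unadjusted p under 0.05, and 0 at the age of onset, with 4.44%. Over all 14541 rows 0.0% were called at either age, with 2906 and 852 rows at an unadjusted p under 0.05. Without WT library 3 of the age of end stage 15 features (0.537%) were called and 0.44% of all rows. In that group the third library had the highest mitochondrial share, and the features of the mitochondrial chromosome had log2 differences of -1.76 to -0.94 with adjusted p of 0.247 to 0.312.

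In nerve macrophages the same G93A stages gave few differences. From pre-symptomatic (n = 3) to end stage (n = 4), 0 of the 2116 features that reached 1 FPKM in MP were called by limma, with 105 at an unadjusted p under 0.05, and 1 of 12999 rows (0.00769%) was called. The SE was larger than in MG for every noncoding RNA listed below that both tested, such as 0.60 against 0.17 for Snhg3. A change could thus go uncalled more easily in MP. The mitochondrial ratio was 0.145 to 0.1491 in these pre-symptomatic and 0.2019 to 0.2251 in these end-stage libraries. The mitochondrial chromosome took 1.00% ± 0.517 of FPKM before symptoms and 0.975% ± 0.527 at end stage, and the exact permutation p was 0.971, with 0.457 for all features and 0.914 for the chromosome 1 cluster. Leaving out pre-symptomatic library 1 gave 8 called features (0.378%), against 0.515% of all rows.

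Known noncoding RNAs with a symbol were set beside the features. Of 41 listed, 31 had a row and 18 were tested. Rows for Snhg1, Snhg15 and Snhg17, hosts of small nucleolar RNAs, Mir22hg, Pvt1 and Rpph1, the RNA of ribonuclease P, rose from pre-symptomatic to end stage, and Tug1 and Peg13 fell. These 8 are 44.4% of the 18, while 54.5% of all rows were called. Rpph1 had the largest of these rises, 1.80 ± 0.31 (limma adjusted p = 0.00013). In early symptoms 6 rose and 1 fell (38.9%, against 34.9% of all rows), at onset against WT 1 fell (Snhg6; 5.56% against 7.97%), and at end stage against WT 0 of 18 were called (7.4% of all rows).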

How the data were processed

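The table holds FPKM deposited by the authors, per the file headers, with decimal commas that were read as decimal points (other values of the table were used only as coordinates, strand and symbol). Per the submitters' processing notes, the build was mm10 and the software included SAMtools, Picard, FastQC, DESeq2 and R 3.2.5, without saying what each did. Aligner, counting and use of strand: not given in the sources used here. Every sample column matched a label (0 columns left unused), groups came from the labels, and each replicate is its own mouse or pool of mice. No interval for counting error is given, since the depth is unknown.

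The test was limma 3.58.1 (R 4.3.3) on log2(FPKM + 1), with group means, eBayes with a trend, all 33 MG (or 18 MP) libraries in 1 fit, rows with a mean of at least 1 FPKM, and Benjamini-Hochberg adjustment over all rows tested; rows under 0.05 were called. The filter is the rule that chose the features, so all 2791 were tested in MG. The fit was checked on simulated data. A near row lies within 5000 bases. Exons and letters came from GENCODE vM21 on GRCm38, as sequences of transcripts, and an exon was covered where at least 50% of the feature lay in exons.

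Named features are the 20 with the highest MG mean, up to 10 rises and 10 falls per comparison among called features whose groups do not overlap and whose higher group reaches 5 FPKM, and those nearest the threshold. The features, marker lists and noncoding list were chosen with earlier results of these data known. Alternatives changed the scaling, pseudocount, filter, fit, replicate block, libraries, marker score terms and controls; the WT controls of the other age were chosen after seeing the data.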

Additional observations from a re-analysis of the deposited data

Results flagged for a closer look

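Among 193 group values examined, 24 had 1 library far from the rest of its group, where chance gives about 1 in 20 for independent values. The values here are not independent, since mitochondrial features move together, so the count was not tested against that rate. In mitochondrial sequence 13 of the 24 came from 2 libraries. WT library 3 of the age of end stage was the highest of its 4 in GSMG0041512 (9417 FPKM), GSMG0041520 (7256), GSMG0043413 (6058), GSMG0041517 (5911), GSMG0043410 (3986), GSMG0041516 (4032), GSMG0041513 (3983) and GSMG0041510 (3541). Pre-symptomatic library 4 was the lowest of its 4 in GSMG0043411 (5447 FPKM), GSMG0043413 (3908), GSMG0041513 (1975) and GSMG0043412 (3146), and in the share of the chromosome 1 cluster (3.0% of FPKM). In GSMG0041521 end-stage library 4 was the highest of its group, at 1307 FPKM.

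Features at named genes had far libraries as well. GSMG0068762, opposite Apoe, was highest in onset library 2 (6205 FPKM) and lowest in end-stage library 4 (3267 FPKM). GSMG0054969, with the letters of Ubb, was highest in WT library 4 of the age of onset (1466 FPKM), as was GSMG0020082, opposite the ferritin gene Fth1 (1150 FPKM), which was lowest in B6 library 1 of that age (892 FPKM). GSMG0067659, opposite S100a8, was highest in onset library 5 (5760 FPKM) and end-stage library 4 (2890 FPKM). GSMG0054294, opposite the hemoglobin gene Hba-a2, was highest in the same libraries (9032 and 3386 FPKM) and in WT library 2 of the age of onset (1544 FPKM), and shares its letters with Hba-a1.

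Of 156 pairs of effects, 4 had every library of 1 contrast moving against every library of the other, and the difference was not tested. From pre-symptomatic to end stage, GSMG0043244 had a log2 difference of -2.76 in MG and moved the other way in MP. Between end stage and onset, each against its WT controls, GSMG0058919 (-1.56 at end stage), GSMG0043333 (-0.90) and GSMG0043175 (0.71) moved in opposite directions. Both contrasts cross the ranges of the mitochondrial ratio, in opposite senses. End-stage libraries lay in the low range and their WT controls in the high range. Onset libraries 1 to 4 lay in the high range and their WT controls in the low range. Set against WT controls of the age of end stage, onset libraries 1 to 4 differed by 0.055, -0.061 and 0.198. The part of the range in the opposite directions was not tested.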

How the results depend on the processing

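Of 80 pairs of a named feature and a comparison, 43 kept their call under every alternative tried, and of 1380 values 1054 kept direction and call, 319 kept the direction only and 7 reversed. The share of the 2791 features called is given here, with the share of all rows tested in brackets. For end stage against WT it was 8.31% (7.4%) in the main setting, 3.98% (1.28%) with no filter and 3.87% (3.90%) with only the compared groups fitted. It was 15.6% (17.05%) with marker score terms, 40.3% (44.98%) with B6 controls and 39.1% (44.69%) with WT controls of the age of onset. With 1 library left out it was 3.48% to 9.89% (3.187% to 9.67%). In that comparison median-ratio scaling called 222 features, 7.95% (6.95%), of which 146 were higher and 76 lower. For onset against WT the share was 7.95% (7.97%) in the main setting. It was 0.251% (0.303%) with median-ratio scaling, 0.358% (0.330%) with scaling to rows with a symbol and 0.179% (0.101%) with no filter. With only the compared groups it was 0.0358% (0.00679%), without the libraries high in S100a8 0.788% (0.468%), and with marker score terms 0.215% (0.0825%). It was 45.7% (52.97%) with B6 controls and 0.967% (1.126%) with WT controls of the age of end stage. With 1 library left out it was 0.0358% to 34.9% (0.0344% to 40.5%). For end stage against pre-symptomatic it was 49.1% (54.5%) in the main setting and 16.7% (16.68%) with marker score terms. With 1 library left out it was 38.9% to 50.4% (44.1% to 56.0%). For early symptoms against pre-symptomatic it was 33.4% (34.9%) in the main setting, 20.2% (6.56%) with no filter and 17.9% (17.89%) with marker score terms. With 1 library left out it was 15.7% to 35.6% (14.05% to 37.6%). With 1 library left out, WT against B6 gave 0.0% to 0.537% (0.0% to 0.440%) at the age of end stage and 0.0% (0.0%) at that of onset. MP gave 0.0% to 0.378% of 2116 features (0.0% to 0.515%). The cause of these shifts was not tested.

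Reversed log2 differences at onset against WT were 0.153 for GSMG0028255 with B6 controls, and, with WT controls of the age of end stage and onset libraries 1 to 4, -0.48 for GSMG0067968, -0.061 for GSMG0043333, -0.013 for GSMG0065121, -0.025 for GSMG0068875 and 0.198 for GSMG0043175. GSMG0067659 was at -0.179 from pre-symptomatic to end stage with marker score terms.

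Replicate numbers did not pair the libraries: same-numbered deviations correlated at -0.603 to 0.547. With a replicate block 17 features (0.609%, against 0.241% of all rows) were called at onset against WT. The block gave 263 features (9.42%, against 8.74% of all rows) at end stage against WT. Against pre-symptomatic libraries it gave 1411 at end stage (50.6%, against 56.4%) and 986 in early symptoms (35.3%, against 37.5%). For WT against B6 it gave 0 features and 0.0% of all rows. A mean threshold of 2 FPKM would leave 1922 features, and a median of at least 1 FPKM 2607.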

Other observations

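A feature in the phosphoglycerate kinase pseudogene Pgk1-rs7, chosen after its values were seen, was at 0 in some libraries of a group and far above 0 in others. GSMG0070470 (chr12:10899762-10899908, 147 bases, - strand) was listed at 0 in all pre-symptomatic libraries and in all WT and B6 libraries of the age of end stage. At the age of onset it had 94.8, 107, 0 and 98.2 FPKM in B6 and 85.8, 0, 71.9 and 13.3 FPKM in WT microglia. G93A microglia had 0, 0, 0, 9.58 and 76.4 FPKM at onset, 0, 0, 72.1 and 0 FPKM in early symptoms and 0, 46.2, 0 and 64.4 FPKM at end stage. Every library above 0, except the fourth at onset, lay in the low range of the ratio of GSMG0043412 to the mt-Co1 feature. Its neighbour in the same pseudogene, the 46-base GSMG0070840 on the + strand, was above 0 in 17 of 17 libraries of the low range (19.03 to 85.84 FPKM) and in 10 of 16 of the high range (0 to 58.6 FPKM).

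In grafted mice at end stage, MP libraries with WT marrow had more of their FPKM on the mitochondrial chromosome (2.84% to 8.84%) than those with G93A marrow (0.326% to 0.960%), with 3 libraries each and no test. In early symptoms the ranges overlapped, at 0.435% to 1.29% with WT marrow (2 libraries) and 0.287% to 1.25% with G93A marrow (3 libraries).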
